A study of Homo sapiens with 18 samples.

Results

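Kinesins are motor proteins that move along microtubules or shorten them, and most of their genes carry the symbol KIF followed by a number. The symbol rule, KIF with a number and an optional letter, matched 39 of the 26485 gene rows in the files. Antisense genes, KIFAP3 and the KIFC genes were not members. From textbook knowledge 13 members were classed as mitotic kinesins, 15 as transport kinesins and 11 as other. A filter on low counts kept 29 members for testing: 10 mitotic, 14 transport and 5 other. RNA came from WIBR3, an established human embryonic stem cell (hESC) line, and from cerebral organoids grown from it, and was counted by bulk MARS-seq, which reads tags near the 3' ends of transcripts. The 18 libraries formed 6 groups of 3: LIS1+/- hESC and LIS1+/+ hESC, LIS1+/- and LIS1+/+ organoids at Day 5, and LIS1+/- and LIS1+/+ organoids at Day 12. All groups share the WIBR3 background, and LIS1+/- cells carry 1 altered copy of LIS1, whose gene symbol is PAFAH1B1. The labels do not say which part of LIS1 was altered or how many clones were used, and genotype and clone cannot be told apart. The labels number the libraries of a group without saying that they were separate cultures, so p-values measure the spread between libraries, which may be technical. The names of the count tables give all 3 LIS1+/- hESC libraries the number 1, while their titles number them 1, 2 and 3, and these libraries differed by more than sampling noise. Each stage has a pool number of its own in the names of its count tables, so stage and pool cannot be told apart.

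Mitotic kinesins build and move the spindle, align and separate chromosomes and complete cell division, and their transcripts are known to peak late in the cell cycle of dividing cells. Transport kinesins carry vesicles, mitochondria, endosomes and ciliary components towards microtubule plus ends, and several are known for their role in axons and dendrites. LIS1 regulates dynein, the motor that walks the other way along the same tracks, and in neural progenitors that motor acts in nuclear movement and in division.

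Levels are in CPM, which are counts scaled to library size, and the values of 3 libraries are always given for replicates 1, 2 and 3 in that order. Tags near the 3' end were not scaled to transcript length. Levels of single genes are set side by side between libraries, while sums and shares add counts over genes. Each library held 1425098 to 4501489 counts on genes, of which 2969 to 8026 fell on kinesins. Differences between groups are log2 fold changes with their standard error, and a gene was called at an adjusted p under 0.05 in edgeR's quasi-likelihood test over the 12215 tested genes. PAFAH1B1 had 61.2, 51.4 and 55.9 CPM in LIS1+/- hESC, against 84.8, 72.1 and 111 CPM in LIS1+/+ hESC. At Day 5 it had 89.0, 105 and 84.3 CPM in LIS1+/- and 129.8, 134 and 152 CPM in LIS1+/+, and at Day 12 104, 114 and 76.1 CPM in LIS1+/- and 147, 218 and 139.7 CPM in LIS1+/+. The genotypes did not overlap at any stage, and over the average of the stages PAFAH1B1 was lower in LIS1+/- by a log2 fold change of -0.68 ± 0.11 (adjusted p = 8.12e-04). Taken by stage, PAFAH1B1 was called at Day 12 and not at hESC or Day 5. The Day 12 call was lost in 7 of 12 alternative settings (adjusted p up to 0.288). POU5F1, a pluripotency factor, lay at 0.569 to 0.618 CPM in LIS1+/- and 0.487 to 0.646 CPM in LIS1+/+ at Day 12, against 400.3 to 509 and 459 to 562 CPM in hESC. The 7 listed pluripotency genes together summed to 536 to 622 CPM in LIS1+/- and 461 to 670 CPM in LIS1+/+ at Day 12. Their median there was 0.569 to 0.618 CPM in LIS1+/- and 0.487 to 1.29 CPM in LIS1+/+. In hESC the median was 466 to 509 and 529 to 592 CPM. SOX2 is both on this list and on the neural progenitor list. The neural progenitor gene PAX6 lay at 10.8 to 16.2 CPM in LIS1+/- and 12.3 to 17.5 CPM in LIS1+/+ at Day 12, against 0 to 0.902 and 0 to 0.668 CPM in hESC. The summed level of the 9 listed neural progenitor genes did not follow PAX6 and was already high in hESC. Their LIS1+/- sums were 7746 to 7937 CPM in hESC, 5580 to 6359 at Day 5 and 8737 to 9273 at Day 12. In LIS1+/+ the sums were 5999 to 6133, 5258 to 6325 and 7018 to 8855 CPM. The median of these 9 genes was low in hESC and rose by stage. In LIS1+/- it was 2.70 to 6.94 CPM in hESC, 212 to 276 at Day 5 and 335 to 460 at Day 12. In LIS1+/+ it was 2.38 to 7.45, 121 to 173 and 191 to 384 CPM. In LIS1+/+ hESC replicate 3, LIS1+/- Day 5 replicate 2 and LIS1+/+ Day 12 replicate 2, genes rich in GC had fewer counts than in the other libraries. These 3 libraries had the highest value of their group in 16, 14 and 17 of the 29 tested kinesins and the lowest in 5, 6 and 9. The same count was not made over all genes.

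**Figure D1:**
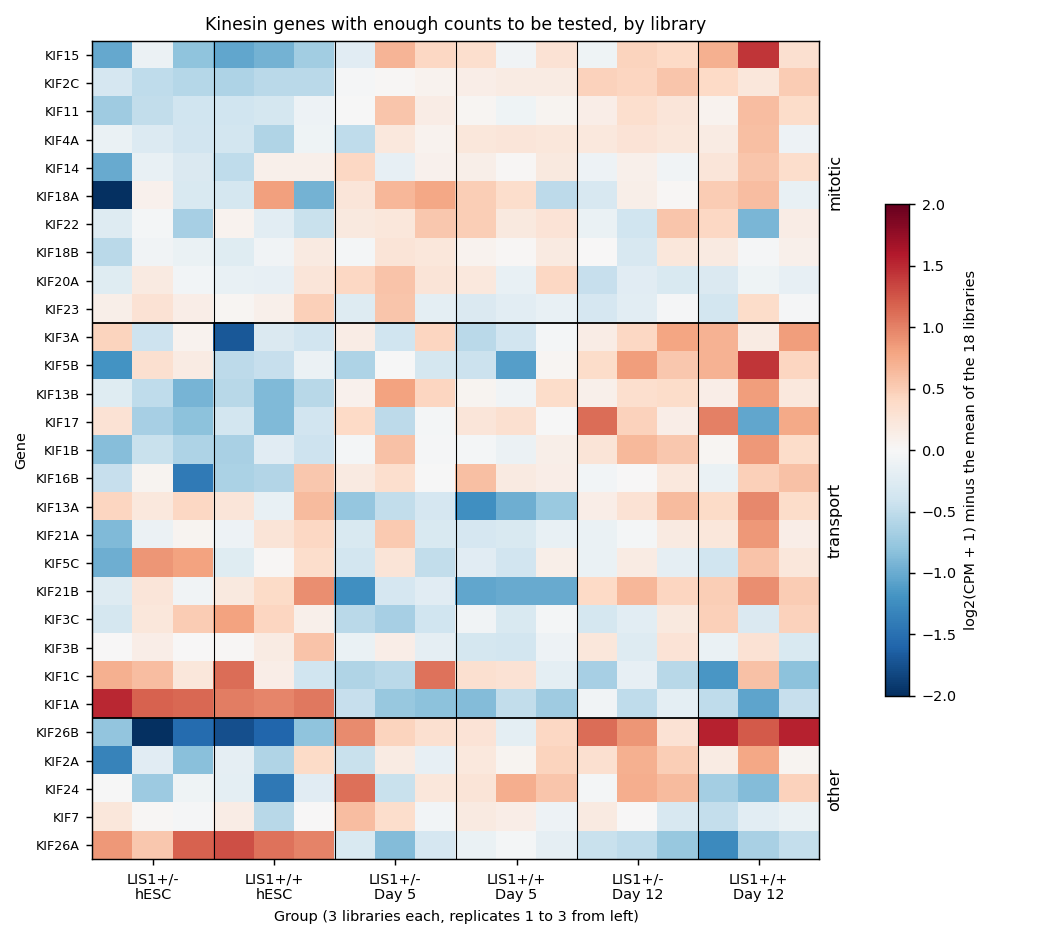
Level of each tested kinesin (rows, by class) in every library (columns, by stage and genotype), drawn as log2(CPM + 1) relative to the mean of that gene over the 18 libraries. KIF1A and KIF26A are high in the hESC libraries, and KIF2C and KIF26B are high at Day 12.

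The step between hESC and Day 5 moved kinesins in both directions. In LIS1+/- organoids 11 of the 29 tested kinesins were called, with 7 that rose and 4 that fell, or 37.9%, beside 43.7% of all tested genes. In LIS1+/+ organoids 12 were called, with 6 that rose and 6 that fell, or 41.4%, beside 44.6% of all genes, and 7 were called without LIS1+/+ hESC replicate 2. The 2 genotypes shared 8 of these calls in the same direction, which is 72.7% of the LIS1+/- calls and 66.7% of the LIS1+/+ calls. The step from Day 5 to Day 12 gave 4 called kinesins in LIS1+/- (3 rose and 1 fell), or 13.8% beside 16.5% of all genes, and 7 in LIS1+/+ (6 rose and 1 fell), or 24.1% beside 24.5%. These counts were 2 without LIS1+/- Day 12 replicate 3 and, in LIS1+/+, 3 without Day 5 replicate 2 and 4 without Day 5 replicate 1. With the 3 libraries of steep GC slope left out, 7 kinesins were called in LIS1+/- at this step. Over the whole course, which is Day 12 against hESC, 11 were called in LIS1+/- (9 rose and 2 fell), beside 52.1% of all genes, and 12 in LIS1+/+ (10 rose and 2 fell), beside 53.1%. The LIS1+/- count was 7 without LIS1+/- hESC replicate 3. All these shares of the family lay near or under those of all genes, and 8 tested members were called in no comparison: KIF16B, KIF18A, KIF18B, KIF1C, KIF22, KIF23, KIF5C and KIF7. In bulk RNA, fewer cells of a type and less RNA per cell cannot be told apart.

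By class, the calls differed in direction at Day 5 against hESC. The mitotic kinesins called there all rose, and the transport kinesins called there went both ways. Over the whole course most called members of both classes rose. Every mitotic kinesin called at Day 5 against hESC rose: 4 of 10 in LIS1+/- and 3 of 10 in LIS1+/+, beside 22.4% and 22.9% of all genes that rose and 21.4% and 21.7% that fell. Without LIS1+/- hESC replicate 1 or 3 the LIS1+/- count was 2. Of 14 transport kinesins, 2 rose and 3 fell in LIS1+/- and 1 rose and 5 fell in LIS1+/+, where 3 were called without hESC replicate 2. Median log2 fold changes at this step were 0.53 and 0.24 for the mitotic class in LIS1+/- and LIS1+/+, -0.17 and -0.27 for the transport class, and 0.06 in each genotype over all tested genes. The next step, Day 12 against Day 5, gave 2 transport and 2 mitotic calls in LIS1+/-, and 5 transport and 0 mitotic calls in LIS1+/+. The transport kinesins called there all rose, beside 8.9% and 12.7% of all genes, and the counts were 1 without LIS1+/- Day 12 replicate 3 and 3 without any 1 of the LIS1+/+ Day 5 libraries. Of the mitotic kinesins KIF2C rose and KIF20A fell in LIS1+/-, where 1 was called without Day 5 replicate 1 or any 1 of the Day 12 libraries, and in LIS1+/+ 1 was called without Day 12 replicate 3, and the share of all genes that fell was 7.64% and 11.7%. In LIS1+/+ at this step, edgeR gave 2 mitotic kinesins an unadjusted p under 0.05, and DESeq2 called 0. Median log2 fold changes were -0.15 and 0.23 for the mitotic class in LIS1+/- and LIS1+/+, 0.35 and 0.37 for the transport class, and -0.01 and 0.02 over all genes. Both steps use the Day 5 libraries, so a gene that is low at Day 5 counts as fallen in the one and risen in the other. Day 12 against hESC left 4 mitotic kinesins higher and 0 lower in each genotype (2 in LIS1+/- without hESC replicate 3 or Day 12 replicate 2 or 3). Transport kinesins at Day 12 against hESC were 3 higher and 1 lower in LIS1+/-, and 5 higher and 1 lower in LIS1+/+, beside 26.7% and 28.1% of all genes that rose and 25.4% and 25% that fell, and the LIS1+/- count was 2 without LIS1+/- hESC replicate 3. Markers of other cell types moved with stage as well. Of 5 choroid plexus markers, all tested, 3 rose and 0 fell at Day 12 against hESC in LIS1+/- and 5 rose in LIS1+/+, with sums of 5.77 to 9.47 and 3.34 to 6.67 CPM in LIS1+/- and LIS1+/+ hESC, 96.6 to 221 and 127 to 154 CPM at Day 5 and 442 to 468 and 365 to 673 CPM at Day 12, and TTR of that list had no count in hESC or at Day 5. The surface ectoderm list summed to 989 to 1122 and 994 to 1277 CPM in hESC, 6.44 to 17.5 and 24.1 to 33.8 CPM at Day 5 and 4.84 to 10.54 and 16.4 to 55.6 CPM at Day 12, nearly all of it EPCAM, the 1 tested gene of 4, which hESC are also known to express, while KRT5 and KRT14 had no count in any library. Mesenchyme sums were 3.29 to 11.996 CPM in LIS1+/- and 6.51 to 12.2 CPM in LIS1+/+ at Day 5, against 225 to 246 and 200.5 to 211 CPM in hESC. Endoderm sums were 0.731 to 3.74 CPM in LIS1+/- and 1.35 to 13.1 CPM in LIS1+/+ at Day 5, against 57.7 to 90.9 and 41.4 to 69.5 CPM in hESC, and the part of these markers in the kinesin changes was not tested.

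Most promoters of the mitotic class held a sequence element that the symbol rule did not use. Genes of late cell cycle are known for the cell cycle genes homology region, a promoter element with the core TTTGAA or TTCGAA, often near an E2F core such as TTGGCGC or TTCGCGC. These letters were searched on both strands in RefSeq promoter windows of 300 bases (250 before to 50 after a start site, GRCh38.p14), with TTCGAA its own reverse complement and no overlap between the 2 kinds of motif. Windows were available for 33 of the 39 members, 42 in all. TTTGAA or TTCGAA was in 10 of 13 mitotic genes (11 of 14 windows, 78.57%), in 1 of 12 transport genes (1 of 17 windows, 5.882%) and in 1 of 8 other genes (1 of 11 windows, 9.091%), beside 16.35% of all 35116 windows in the table. Among non-kinesin genes of mitosis it was in 15 of 19 windows (78.95%). The transport gene with a match was KIF5B, at base -140 from its start, and the other gene was KIF24. Mitotic genes without a match were KIF20A, KIF2B and KIF2C, and the E2F core stood in 3 mitotic windows, those of KIF15, KIF18A and KIF18B (21.43%, beside 5.058% of all windows). A match describes letters in a window and was not tested for binding. The windows of the 4 mitotic kinesins that rose over the course in both genotypes are printed from 150 bases before the start to 50 bases after it, with KIF23, which was called in no comparison, for contrast. Capitals mark the core (TTCAAA is TTTGAA read on the other strand), and in KIF15 also the E2F core, printed as GCGCCAA.
KIF11 (chr10:92592980-92593179, plus strand): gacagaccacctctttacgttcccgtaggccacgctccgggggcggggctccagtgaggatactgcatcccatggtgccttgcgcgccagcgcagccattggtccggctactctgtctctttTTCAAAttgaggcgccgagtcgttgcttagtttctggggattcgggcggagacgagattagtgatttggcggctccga
KIF15 (chr3:44761644-44761843, plus strand): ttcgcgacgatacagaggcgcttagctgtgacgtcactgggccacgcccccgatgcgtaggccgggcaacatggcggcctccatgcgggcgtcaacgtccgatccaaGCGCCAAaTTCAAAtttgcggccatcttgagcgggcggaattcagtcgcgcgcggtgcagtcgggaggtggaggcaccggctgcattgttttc
KIF4A (chrX:70289954-70290153, plus strand): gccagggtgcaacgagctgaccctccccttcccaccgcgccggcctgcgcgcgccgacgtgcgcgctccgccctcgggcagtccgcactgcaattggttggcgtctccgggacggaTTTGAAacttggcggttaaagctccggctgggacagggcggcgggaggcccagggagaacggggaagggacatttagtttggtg
KIF23 (chr15:69414199-69414398, plus strand): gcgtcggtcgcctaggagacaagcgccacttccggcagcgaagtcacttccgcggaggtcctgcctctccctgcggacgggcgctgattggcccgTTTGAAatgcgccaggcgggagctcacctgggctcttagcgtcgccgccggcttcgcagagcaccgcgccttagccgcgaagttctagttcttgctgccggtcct
KIF2C (chr1:44739687-44739886, plus strand): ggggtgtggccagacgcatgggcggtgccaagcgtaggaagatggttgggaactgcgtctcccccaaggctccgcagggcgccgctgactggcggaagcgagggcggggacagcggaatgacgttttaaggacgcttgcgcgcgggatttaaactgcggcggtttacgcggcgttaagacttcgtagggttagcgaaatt
The core began 28, 35, 34 and 55 bases before the start site in KIF11, KIF15, KIF4A and KIF23. KIF2C has no capitals because neither motif was found in its window, and no match says only that these letters are not there.

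**Figure D2:**
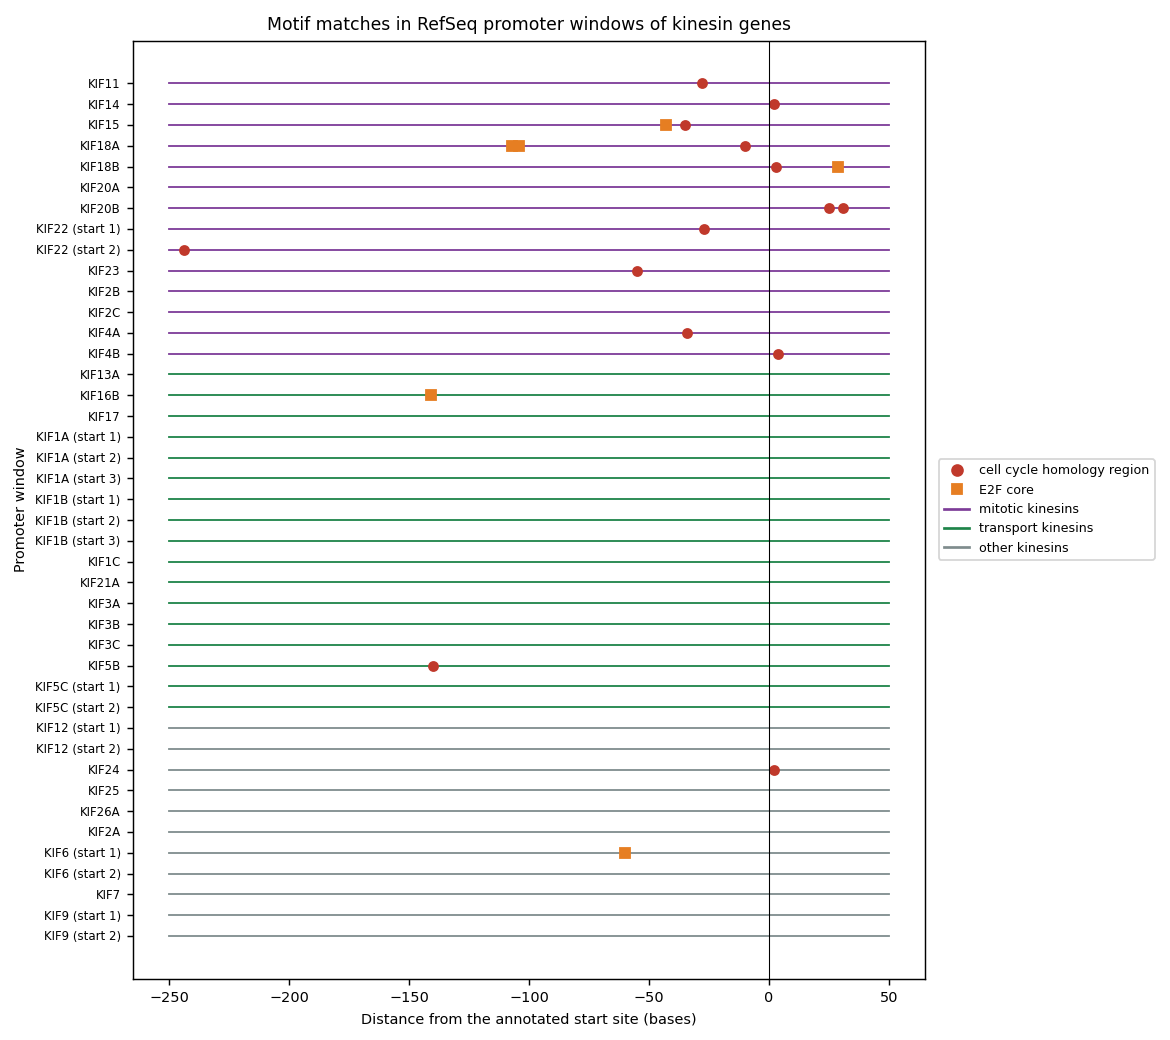
Positions of the motif matches in the promoter windows of the kinesins, as distance in bases from the start site, by class. In the mitotic class 11 of 14 windows hold TTTGAA or TTCGAA, against 1 of 17 in the transport class.

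The mitotic kinesins called over the course, in both genotypes, were KIF2C, KIF11, KIF15 and KIF4A. KIF2C, a microtubule depolymerase at centromeres, corrects faulty attachments of chromosomes. KIF2C had 113, 100.1 and 95.6 CPM in hESC, 140.2, 145 and 149.8 CPM at Day 5 and 195, 192 and 209.7 CPM at Day 12 in LIS1+/-. KIF2C in LIS1+/+ had 91.9, 97.5 and 97.5 CPM in hESC, 155, 159.5 and 159 CPM at Day 5 and 188, 167 and 202 CPM at Day 12. Each stage lay above the one before it in both genotypes, with no overlap between libraries of successive stages. Day 5 against hESC, KIF2C rose by 0.50 ± 0.14 (adjusted p = 0.00580) in LIS1+/- and rose by 0.73 ± 0.14 (adjusted p = 1.79e-04) in LIS1+/+. At Day 12 against Day 5 it rose by 0.46 ± 0.14 (adjusted p = 0.0236) in LIS1+/-, a call lost without LIS1+/- Day 5 replicate 1, or LIS1+/- Day 12 replicate 1, 2 or 3 (adjusted p 0.0521 to 0.0908), and in LIS1+/+ the log2 fold change was 0.23 ± 0.14 (adjusted p = 0.225). Over the course it rose by 0.96 ± 0.14 (adjusted p = 3.21e-06) in LIS1+/- and rose by 0.96 ± 0.14 (adjusted p = 4.11e-06) in LIS1+/+.

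KIF11 slides spindle microtubules apart and keeps the spindle bipolar. KIF11 had 77.7, 91.1 and 97.0 CPM in hESC, 128, 188 and 142 CPM at Day 5 and 139.7, 161 and 152 CPM at Day 12 in LIS1+/-. KIF11 in LIS1+/+ had 96.7, 100.2 and 119 CPM in hESC, 131, 119.9 and 132 CPM at Day 5 and 134, 196 and 165 CPM at Day 12. All Day 5 and Day 12 libraries lay above all hESC libraries of the same genotype, and within LIS1+/- the Day 5 and Day 12 libraries overlapped. KIF11 rose by 0.78 ± 0.17 (adjusted p = 6.81e-04) at Day 5 against hESC in LIS1+/-, and in LIS1+/+ the log2 fold change was 0.28 ± 0.17 (adjusted p = 0.196). Over the course it rose by 0.77 ± 0.17 (adjusted p = 6.00e-04) in LIS1+/- and rose by 0.65 ± 0.18 (adjusted p = 0.00309) in LIS1+/+. KIF15 backs up KIF11 in keeping the spindle bipolar. KIF15 had 8.21, 16.2 and 9.74 CPM in hESC, 14.95, 28.9 and 24.0 CPM at Day 5 and 16.7, 24.5 and 23.7 CPM at Day 12 in LIS1+/-. KIF15 in LIS1+/+ had 8.09, 8.68 and 10.6 CPM in hESC, 22.7, 16.9 and 21.9 CPM at Day 5 and 29.7, 49.7 and 22.4 CPM at Day 12. Day 12 libraries lay above the hESC libraries of their genotype, and LIS1+/- Day 5 replicate 1 lay within the range of LIS1+/- hESC. KIF15 rose by 0.97 ± 0.33 (adjusted p = 0.0169) at Day 5 against hESC in LIS1+/-, a call lost without LIS1+/- hESC replicate 1 or 3, or LIS1+/- Day 5 replicate 2 (adjusted p 0.0748 to 0.0786), and rose by 1.17 ± 0.34 (adjusted p = 0.00693) in LIS1+/+. Over the course KIF15 rose by 0.93 ± 0.33 (adjusted p = 0.0189) in LIS1+/-, a call lost without LIS1+/- hESC replicate 1 or 3, or LIS1+/- Day 12 replicate 2 or 3 (adjusted p 0.0573 to 0.0844), and rose by 1.89 ± 0.35 (adjusted p = 6.01e-05) in LIS1+/+.

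KIF4A, a motor on chromosome arms that also works at the central spindle, had the smallest log2 fold changes of the 4 over the course. KIF4A had 109, 98.7 and 91.6 CPM in hESC, 83.7, 138 and 125 CPM at Day 5 and 139, 145 and 139.9 CPM at Day 12 in LIS1+/-. KIF4A in LIS1+/+ had 92.9, 78.8 and 112 CPM in hESC, 140.1, 141 and 140.0 CPM at Day 5 and 134, 181 and 111 CPM at Day 12. The LIS1+/- groups of hESC and Day 12 did not overlap, while in LIS1+/+ hESC replicate 3 lay above Day 12 replicate 3. KIF4A rose by 0.57 ± 0.19 (adjusted p = 0.0168) at Day 5 against hESC in LIS1+/+, a call lost without LIS1+/+ hESC replicate 1 or 2 (adjusted p 0.0507 to 0.0914), and in LIS1+/- the log2 fold change was 0.22 ± 0.19 (adjusted p = 0.373). Over the course it rose by 0.50 ± 0.19 (adjusted p = 0.0277) in LIS1+/-, a call lost without LIS1+/- hESC replicate 2 or 3, or LIS1+/- Day 12 replicate 1, 2 or 3 (adjusted p 0.0516 to 0.101), and rose by 0.58 ± 0.19 (adjusted p = 0.0136) in LIS1+/+, lost without LIS1+/+ hESC replicate 2, or LIS1+/+ Day 12 replicate 2 (adjusted p 0.0790 to 0.125). Reads of KIF4A are uncertain because KIF4B is a near-identical copy, with 3 counts in all 18 libraries, and because exons of KIF4A overlap PDZD11 on the opposite strand.

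Other mitotic kinesins were called at 1 step or not at all. KIF14, which works with citron kinase in cytokinesis, rose by 0.56 ± 0.23 (adjusted p = 0.0479) at Day 5 against hESC in LIS1+/-, a call lost without LIS1+/- hESC replicate 1 or 3, or LIS1+/- Day 5 replicate 1 or 3 (adjusted p 0.0619 to 0.234). KIF20A carries the chromosomal passenger complex to the central spindle in cytokinesis. KIF20A had 43.6, 58.6 and 49.4 CPM in hESC, 69.1, 77.1 and 62.0 CPM at Day 5 and 37.1, 44.1 and 41.6 CPM at Day 12 in LIS1+/-. KIF20A in LIS1+/+ had 46.2, 46.1 and 61.5 CPM in hESC, 59.6, 46.6 and 69.0 CPM at Day 5 and 42.0, 48.4 and 45.7 CPM at Day 12. In LIS1+/- the Day 12 libraries lay below all Day 5 libraries, and in LIS1+/+ the Day 12 and Day 5 libraries overlapped. KIF20A fell by 0.75 ± 0.19 (adjusted p = 0.00767) at Day 12 against Day 5 in LIS1+/-, and in LIS1+/+ the log2 fold change was -0.36 ± 0.20 (adjusted p = 0.180). It was the only mitotic kinesin called as fallen in any stage comparison, and its exons overlap CDC23 and BRD8 on the opposite strand. KIF22 binds DNA and pushes chromosome arms. KIF22 had 175, 204 and 132 CPM in hESC, 240.0, 245 and 305 CPM at Day 5 and 191, 159 and 308 CPM at Day 12 in LIS1+/-. KIF22 in LIS1+/+ had 220.0, 182 and 153 CPM in hESC, 295, 241 and 253 CPM at Day 5 and 280.4, 111 and 233 CPM at Day 12. Its Day 5 libraries lay above the hESC libraries in both genotypes, and its Day 12 libraries ranged from 159 to 308 CPM in LIS1+/- and from 111 to 280.4 CPM in LIS1+/+. The log2 fold change at Day 5 against hESC was 0.63 ± 0.27 (adjusted p = 0.0626) in LIS1+/- and 0.51 ± 0.27 (adjusted p = 0.134) in LIS1+/+.

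Of the mitotic kinesins not called anywhere, KIF23, the motor of centralspindlin, averaged 91.9 ± 6.33, 85.7 ± 29.1 and 71.0 ± 7.99 CPM in LIS1+/- at hESC, Day 5 and Day 12, and 94.0 ± 16.004, 69.7 ± 3.16 and 82.3 ± 21.0 CPM in LIS1+/+ (SD, n = 3 each). Its LIS1+/+ Day 5 libraries (66.3 to 72.6 CPM) all lay below LIS1+/+ hESC (82.9 to 112 CPM). Its LIS1+/- Day 12 libraries (63.7 to 79.5 CPM) all lay below LIS1+/- hESC (87.8 to 99.2 CPM). KIF18B, which controls astral microtubules, averaged 84.2 ± 14.01, 110.5 ± 11.9 and 98.7 ± 18.6 CPM in LIS1+/- and 97.2 ± 14.7, 106 ± 6.10 and 106 ± 7.82 CPM in LIS1+/+. Its relative KIF18A, which damps chromosome movement at the metaphase plate, stayed at or below 6.68 CPM in every library and had no count in LIS1+/- hESC replicate 1. KIF18A exons overlap METTL15 on the opposite strand. KIF20B and KIF4B had 68 and 3 counts over the 18 libraries and were not tested, and KIF2B had 0 of 47416238 gene counts, which allows up to 0.0633 CPM.

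**Figure D3:**
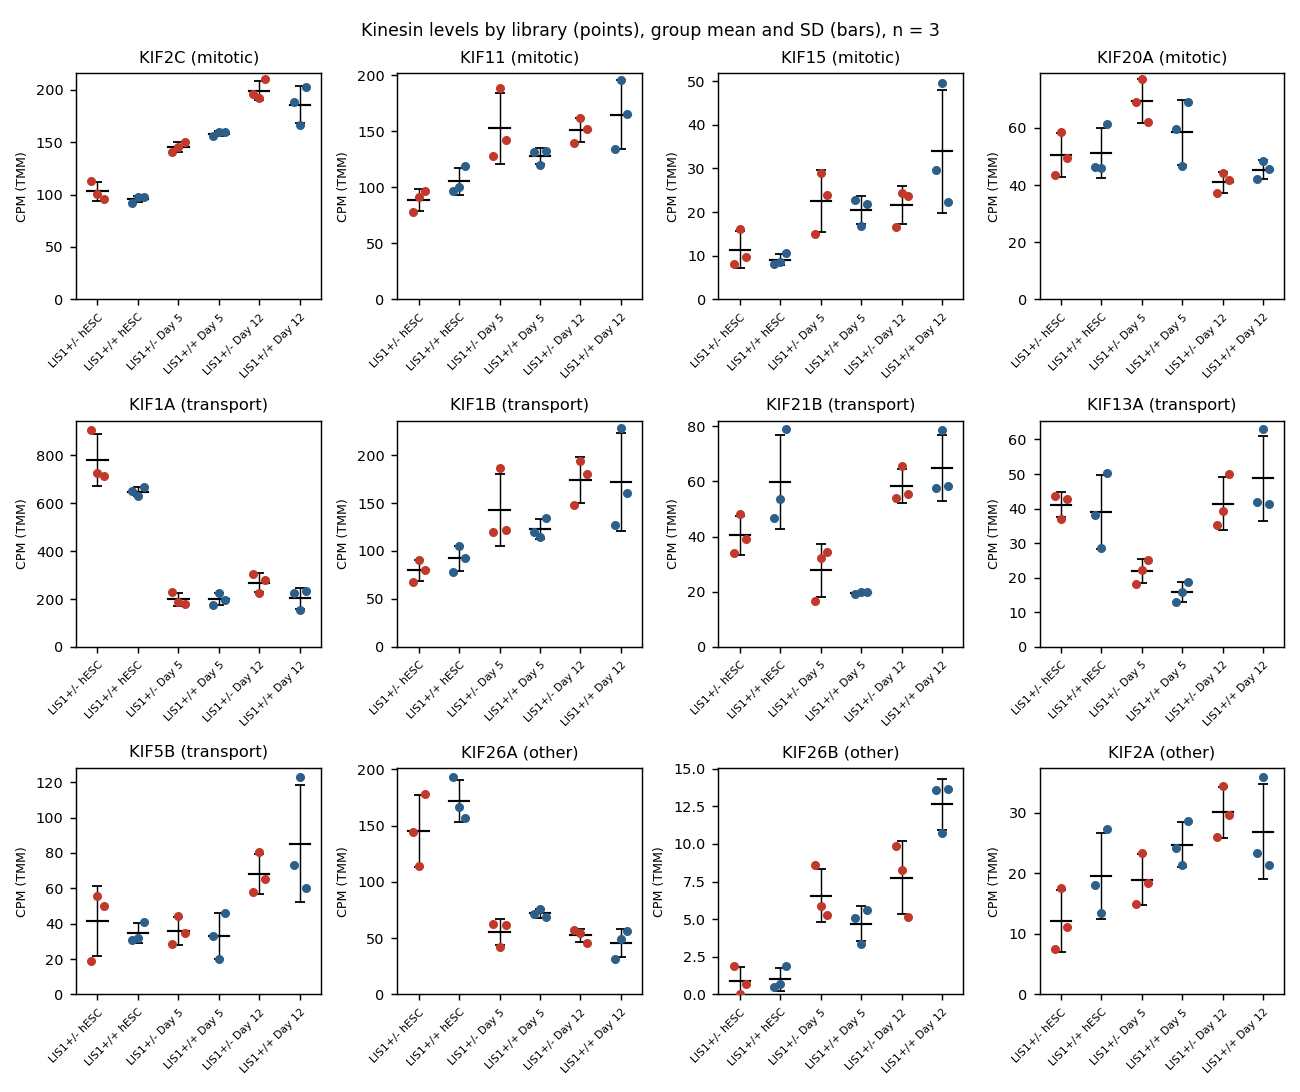
Level in CPM (linear axis from 0) of kinesins of each class by stage, with LIS1+/- (red) left of LIS1+/+ (blue). Points are libraries, wide lines are group means and error bars are SD (n = 3). KIF2C is higher at each stage than at the one before, and KIF1A drops at Day 5 and stays below its hESC level at Day 12.

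Of the 14 tested transport kinesins 11 were called in at least 1 stage comparison, and KIF16B, KIF1C and KIF5C in none. KIF1A carries synaptic vesicle precursors and dense-core vesicles in neurons. KIF1A had 906, 725 and 711 CPM in hESC, 231, 189 and 179.9 CPM at Day 5 and 302, 224 and 279 CPM at Day 12 in LIS1+/-. KIF1A in LIS1+/+ had 649, 629.9 and 666 CPM in hESC, 175, 227 and 196 CPM at Day 5 and 224, 153 and 232 CPM at Day 12. All hESC libraries lay above all organoid libraries, and Day 5 and Day 12 overlapped within each genotype. KIF1A fell by 1.97 ± 0.17 (adjusted p = 5.57e-10) at Day 5 against hESC in LIS1+/-, which is 3.91-fold lower, and fell by 1.70 ± 0.17 (adjusted p = 7.19e-09) in LIS1+/+, which is 3.25-fold lower. Over the course it fell by 1.54 ± 0.17 (adjusted p = 2.56e-08) in LIS1+/- and fell by 1.67 ± 0.17 (adjusted p = 8.61e-09) in LIS1+/+. Neuronal genes did not share 1 course beside it: of 10 listed neuronal markers 8 were tested, of which 2 rose and 4 fell at Day 5 against hESC in LIS1+/-, and 2 rose and 2 fell in LIS1+/+. Among all tested genes 22.4% and 22.9% rose at this step in LIS1+/- and LIS1+/+, and 21.4% and 21.7% fell. The summed level of the 10 markers was 756 to 795 CPM in LIS1+/- hESC and 592 to 697 CPM in LIS1+/+ hESC, 508 to 556 and 455 to 468 CPM at Day 5, and 837 to 887 and 680.0 to 853 CPM at Day 12. Their median in LIS1+/- was 8.84 to 9.20 CPM in hESC, 5.23 to 8.63 at Day 5 and 32.5 to 41.1 at Day 12. In LIS1+/+ the median was 8.57 to 15.4, 9.77 to 11.6 and 31.1 to 69.1 CPM. NEUROD1 had no count in hESC, DCX lay at 3.61 to 7.58 and 2.00 to 3.72 CPM there, and their part in the kinesin levels was not tested.

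KIF13A and KIF21B were low at Day 5 and higher again at Day 12, on 2 steps that share the Day 5 libraries. KIF13A carries vesicles from the trans-Golgi network and recycling endosomes. KIF13A had 43.6, 37.0 and 42.9 CPM in hESC, 18.3, 22.3 and 25.2 CPM at Day 5 and 35.2, 39.3 and 49.9 CPM at Day 12 in LIS1+/-. KIF13A in LIS1+/+ had 38.1, 28.7 and 50.3 CPM in hESC, 13.03, 15.8 and 18.7 CPM at Day 5 and 42.0, 62.9 and 41.4 CPM at Day 12. Every Day 5 library lay below every hESC and Day 12 library of its genotype. At Day 5 against hESC KIF13A fell by 0.90 ± 0.24 (adjusted p = 0.00384) in LIS1+/- and fell by 1.30 ± 0.25 (adjusted p = 1.20e-04) in LIS1+/+. Against Day 5, KIF13A at Day 12 rose by 0.92 ± 0.24 (adjusted p = 0.00829) in LIS1+/-, a call lost without LIS1+/- Day 12 replicate 3 (adjusted p = 0.0640), and rose by 1.61 ± 0.24 (adjusted p = 2.77e-05) in LIS1+/+. Day 12 against hESC, the log2 fold changes of KIF13A were 0.02 ± 0.23 (adjusted p = 0.939) in LIS1+/- and 0.31 ± 0.24 (adjusted p = 0.284) in LIS1+/+. KIF21B is a motor enriched in neurons that also limits microtubule growth. KIF21B had 34.1, 48.2 and 39.0 CPM in hESC, 16.8, 32.2 and 34.5 CPM at Day 5 and 53.8, 65.4 and 55.6 CPM at Day 12 in LIS1+/-. KIF21B in LIS1+/+ had 46.7, 53.4 and 78.8 CPM in hESC, 19.3, 19.8 and 19.8 CPM at Day 5 and 57.5, 78.6 and 58.4 CPM at Day 12. In LIS1+/+ the Day 5 libraries lay below all others, while in LIS1+/- Day 5 replicate 3 lay just above hESC replicate 1. At Day 5 against hESC KIF21B fell by 1.59 ± 0.25 (adjusted p = 8.70e-06) in LIS1+/+, and the log2 fold change in LIS1+/- was -0.54 ± 0.25 (adjusted p = 0.0817). Its Day 12 level against Day 5 rose by 1.06 ± 0.24 (adjusted p = 0.00290) in LIS1+/- and rose by 1.72 ± 0.25 (adjusted p = 1.44e-05) in LIS1+/+.

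KIF3C is a kinesin-2 motor enriched in neurons. KIF3C had 24.6, 37.4 and 45.4 CPM in hESC, 21.7, 19.7 and 24.0 CPM at Day 5 and 24.7, 27.3 and 36.8 CPM at Day 12 in LIS1+/-. KIF3C in LIS1+/+ had 56.2, 43.4 and 34.1 CPM in hESC, 30.4, 25.7 and 30.9 CPM at Day 5 and 44.6, 25.8 and 44.3 CPM at Day 12. Every Day 5 library lay below every hESC library of its genotype. KIF3C fell by 0.73 ± 0.26 (adjusted p = 0.0242) at Day 5 against hESC in LIS1+/-, a call lost without LIS1+/- hESC replicate 2 or 3, or LIS1+/- Day 5 replicate 1 or 2 (adjusted p 0.0545 to 0.166), and fell by 0.63 ± 0.25 (adjusted p = 0.0431) in LIS1+/+, lost without LIS1+/+ hESC replicate 1 or 2, or LIS1+/+ Day 5 replicate 1, 2 or 3 (adjusted p 0.0704 to 0.260). KIF3A and KIF3B form the motor of heterotrimeric kinesin-2, which carries cargo along the cilium. KIF3A had 13.9, 7.21 and 10.46 CPM in hESC, 11.2, 7.31 and 13.8 CPM at Day 5 and 11.1, 13.7 and 17.95 CPM at Day 12 in LIS1+/-. KIF3A in LIS1+/+ had 2.38, 8.02 and 7.45 CPM in hESC, 6.51, 7.44 and 9.70 CPM at Day 5 and 16.8, 11.3 and 18.5 CPM at Day 12. In LIS1+/+ the Day 12 libraries lay above all hESC and Day 5 libraries, and in LIS1+/- the stages overlapped. KIF3A rose by 1.44 ± 0.42 (adjusted p = 0.00534) at Day 12 against hESC in LIS1+/+, a call lost without LIS1+/+ hESC replicate 1 (adjusted p = 0.0559), and the log2 fold change in LIS1+/- was 0.48 ± 0.37 (adjusted p = 0.280). Against Day 5 it rose by 0.98 ± 0.36 (adjusted p = 0.0497) in LIS1+/+, a call lost without LIS1+/+ Day 5 replicate 1, 2 or 3, or LIS1+/+ Day 12 replicate 1 or 3 (adjusted p 0.0517 to 0.162). KIF3B fell by 0.55 ± 0.22 (adjusted p = 0.0427) at Day 5 against hESC in LIS1+/+, a call lost without LIS1+/+ hESC replicate 2 or 3, or LIS1+/+ Day 5 replicate 1 or 2 (adjusted p 0.0568 to 0.240), and in LIS1+/- the log2 fold change was -0.11 ± 0.22 (adjusted p = 0.714). Markers of ciliated cells, FOXJ1, RSPH1 and PIFO, all rose at Day 12 against Day 5 in both genotypes, with summed levels of 79.1 to 146 CPM in LIS1+/- and 56.0 to 81.3 CPM in LIS1+/+ at Day 12, against 14.6 to 18.1 and 12.2 to 18.3 CPM at Day 5, and their part in KIF3A was not tested.

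KIF1B and KIF13B were higher at Day 12 than in hESC in both genotypes. KIF1B carries mitochondria and synaptic vesicle precursors. KIF1B had 68.2, 90.6 and 80.4 CPM in hESC, 120.0, 186 and 122 CPM at Day 5 and 148, 194 and 180.1 CPM at Day 12 in LIS1+/-. KIF1B in LIS1+/+ had 78.6, 106 and 92.5 CPM in hESC, 119.9, 114 and 134 CPM at Day 5 and 127, 228 and 160.1 CPM at Day 12. All organoid libraries lay above the hESC libraries of their genotype. KIF1B rose by 1.12 ± 0.21 (adjusted p = 5.37e-05) at Day 12 against hESC in LIS1+/- and rose by 0.90 ± 0.21 (adjusted p = 7.25e-04) in LIS1+/+. The rise at Day 5 was called in LIS1+/- (0.84 ± 0.21, adjusted p = 0.00174), and in LIS1+/+ the log2 fold change was 0.42 ± 0.21 (adjusted p = 0.101). KIF13B moves vesicles and binds the scaffold DLG1. KIF13B had 20.2, 16.7 and 12.3 CPM in hESC, 25.8, 43.1 and 32.8 CPM at Day 5 and 26.0, 30.7 and 31.3 CPM at Day 12 in LIS1+/-. KIF13B in LIS1+/+ had 16.2, 12.7 and 16.1 CPM in hESC, 25.1, 23.0 and 31.3 CPM at Day 5 and 26.5, 44.0 and 28.2 CPM at Day 12. The organoid libraries again lay above all hESC libraries of the genotype, and Day 5 and Day 12 overlapped. KIF13B rose by 1.07 ± 0.27 (adjusted p = 0.00185) at Day 5 against hESC in LIS1+/-, and rose by 0.81 ± 0.27 (adjusted p = 0.0173) in LIS1+/+, lost without LIS1+/+ hESC replicate 2, or LIS1+/+ Day 5 replicate 3 (adjusted p 0.0705 to 0.0778). Over the course it rose by 0.88 ± 0.27 (adjusted p = 0.00778) in LIS1+/-, lost without LIS1+/- hESC replicate 3 (adjusted p = 0.0623), and rose by 1.12 ± 0.28 (adjusted p = 0.00163) in LIS1+/+.

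KIF5B, the heavy chain of conventional kinesin found in most tissues, was higher at Day 12. KIF5B had 18.9, 55.9 and 50.1 CPM in hESC, 28.8, 44.6 and 34.8 CPM at Day 5 and 58.1, 80.5 and 65.3 CPM at Day 12 in LIS1+/-. KIF5B in LIS1+/+ had 31.0, 32.1 and 41.0 CPM in hESC, 33.0, 20.3 and 46.2 CPM at Day 5 and 73.0, 123 and 60.3 CPM at Day 12. Day 12 libraries lay above all hESC and Day 5 libraries of the same genotype. Against its Day 5 level KIF5B rose by 1.36 ± 0.33 (adjusted p = 0.00417) at Day 12 in LIS1+/+, and the log2 fold change in LIS1+/- was 0.92 ± 0.33 (adjusted p = 0.0556). Day 12 against hESC, it rose by 1.30 ± 0.34 (adjusted p = 0.00303) in LIS1+/+, and the LIS1+/- log2 fold change was 0.69 ± 0.33 (adjusted p = 0.0834). KIF5C, a neuronal heavy chain, averaged 69.7 ± 38.6, 45.2 ± 13.5 and 49.2 ± 6.70 CPM in LIS1+/- at hESC, Day 5 and Day 12 and 53.2 ± 11.3, 45.7 ± 8.60 and 57.7 ± 18.7 CPM in LIS1+/+ and was called in no comparison, and KIF5A had 70 counts in all and was not tested. KIF17, a motor of dendrites and cilia, rose by 1.00 ± 0.40 (adjusted p = 0.0398) at Day 12 against hESC in LIS1+/-, lost without LIS1+/- hESC replicate 2 or 3, or LIS1+/- Day 12 replicate 1 or 2 (adjusted p 0.0577 to 0.180), and rose by 1.05 ± 0.42 (adjusted p = 0.0407) in LIS1+/+, lost without LIS1+/+ hESC replicate 1, 2 or 3, or LIS1+/+ Day 12 replicate 1 or 3 (adjusted p 0.0688 to 0.198). KIF17 had 45.8, 28.7 and 22.5 CPM at Day 12 in LIS1+/- and 42.0, 9.44 and 35.5 CPM in LIS1+/+, against 25.3, 12.6 and 11.2 CPM in LIS1+/- hESC and 15.7, 10.7 and 15.5 CPM in LIS1+/+ hESC, so Day 12 and hESC overlapped in both genotypes. KIF21A, a relative of KIF21B, rose by 0.72 ± 0.27 (adjusted p = 0.0489) at Day 12 against Day 5 in LIS1+/+, lost without LIS1+/+ Day 5 replicate 1, 2 or 3, or LIS1+/+ Day 12 replicate 1 or 2 (adjusted p 0.0524 to 0.294). KIF16B, an early endosome motor, ranged over group means of 4.33 to 8.49 CPM, and KIF1C over 5.92 to 12.7 CPM, neither called.

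Among the other kinesins, the atypical motors KIF26A and KIF26B went opposite ways. In mice KIF26A acts in GDNF signalling of enteric neurons and KIF26B in kidney development. KIF26A had 144, 114 and 178 CPM in hESC, 62.8, 42.4 and 61.4 CPM at Day 5 and 56.9, 54.6 and 45.9 CPM at Day 12 in LIS1+/-. KIF26A in LIS1+/+ had 193, 166 and 156 CPM in hESC, 71.2, 75.9 and 68.8 CPM at Day 5 and 31.7, 49.7 and 56.0 CPM at Day 12. All hESC libraries lay above all organoid libraries. KIF26A fell by 1.39 ± 0.20 (adjusted p = 3.63e-06) at Day 5 against hESC in LIS1+/- and fell by 1.26 ± 0.20 (adjusted p = 1.11e-05) in LIS1+/+, and over the course it fell by 1.48 ± 0.20 (adjusted p = 1.14e-06) in LIS1+/- and fell by 1.90 ± 0.21 (adjusted p = 3.70e-08) in LIS1+/+. At Day 12 against Day 5 it fell by 0.64 ± 0.21 (adjusted p = 0.0257) in LIS1+/+, lost without LIS1+/+ Day 5 replicate 1 or 2, or LIS1+/+ Day 12 replicate 1 (adjusted p 0.0549 to 0.148). KIF26B had 1.89, 0 and 0.721 CPM in hESC, 8.60, 5.85 and 5.27 CPM at Day 5 and 9.89, 8.25 and 5.13 CPM at Day 12 in LIS1+/-. KIF26B in LIS1+/+ had 0.476, 0.668 and 1.86 CPM in hESC, 5.07, 3.38 and 5.64 CPM at Day 5 and 13.6, 10.7 and 13.6 CPM at Day 12. The hESC groups held 5 counts each in all, and every organoid library lay above every hESC library. KIF26B rose by 3.21 ± 0.63 (adjusted p = 1.32e-04) at Day 12 against hESC in LIS1+/- and rose by 3.65 ± 0.62 (adjusted p = 2.33e-05) in LIS1+/+, the largest rises of any kinesin called there, on few counts. At Day 5 it rose by 3.00 ± 0.64 (adjusted p = 4.20e-04) in LIS1+/- and rose by 2.22 ± 0.65 (adjusted p = 0.00724) in LIS1+/+, lost without LIS1+/+ hESC replicate 1 (adjusted p = 0.0531). Against Day 5, KIF26B at Day 12 rose by 1.42 ± 0.44 (adjusted p = 0.0186) in LIS1+/+, lost without LIS1+/+ Day 5 replicate 2, or LIS1+/+ Day 12 replicate 3 (adjusted p 0.0528 to 0.0832).

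KIF2A, a depolymerase that in mice trims axon branches, was called over the course in LIS1+/-. KIF2A had 7.58, 17.6 and 11.2 CPM in hESC, 14.95, 23.4 and 18.4 CPM at Day 5 and 26.0, 34.4 and 29.6 CPM at Day 12 in LIS1+/-. KIF2A in LIS1+/+ had 18.1, 13.4 and 27.3 CPM in hESC, 24.1, 21.4 and 28.6 CPM at Day 5 and 23.3, 35.9 and 21.4 CPM at Day 12. In LIS1+/- the Day 12 libraries lay above all others, and in LIS1+/+ all stages overlapped. KIF2A rose by 1.29 ± 0.31 (adjusted p = 9.09e-04) at Day 12 against hESC in LIS1+/-, and the log2 fold change in LIS1+/+ was 0.45 ± 0.31 (adjusted p = 0.233). Its exons overlap IPO11 on the same strand, so reads there are uncertain. KIF24, which remodels centriolar microtubules and restrains cilium assembly, rose by 1.12 ± 0.45 (adjusted p = 0.0441) at Day 5 against hESC in LIS1+/+, lost without LIS1+/+ hESC replicate 1, 2 or 3, or LIS1+/+ Day 5 replicate 2 or 3 (adjusted p 0.0544 to 0.190), with exons that overlap UBAP1 on the opposite strand. KIF7, which organises the cilium tip in hedgehog signalling, averaged 43.9 ± 4.15, 52.5 ± 11.9 and 40.5 ± 7.02 CPM in LIS1+/- at hESC, Day 5 and Day 12, and 38.6 ± 9.43, 43.8 ± 4.61 and 34.5 ± 4.28 CPM in LIS1+/+ (SD, n = 3 each). No comparison called KIF7, whose exons overlap TICRR on the opposite strand. The remaining 6 were not tested: KIF12, KIF19, KIF25, KIF27, KIF6 and KIF9 had 46, 66, 49, 6, 1 and 23 counts in all.

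The mitotic share of all kinesin counts was lowest in hESC and highest at Day 5. It averaged 33.9 ± 2.28% in LIS1+/- hESC, 56.0 ± 2.48% in LIS1+/- Day 5 and 49.7 ± 2.43% in LIS1+/- Day 12 (SD, n = 3 each). In LIS1+/+ it averaged 36.6 ± 0.414% in hESC, 56.7 ± 1.64% at Day 5 and 51.4 ± 2.83% at Day 12. Libraries of successive stages did not overlap in either genotype, and each difference had p = 0.1 in a two-sided exact permutation test, the smallest that 3 against 3 libraries allow. The genotypes overlapped at every stage, with differences of -2.70, -0.625 and -1.75 percentage points at hESC, Day 5 and Day 12 (exact permutation p = 0.2, 0.9 and 0.5). Transport kinesins took 56.3 ± 1.28% and 52.1 ± 0.882% of kinesin counts in LIS1+/- and LIS1+/+ hESC, 35.6 ± 1.55% and 34.1 ± 1.64% at Day 5, and 42.8 ± 1.34% and 42.0 ± 2.34% at Day 12. KIF1A alone made up 7.30 to 15.8% of kinesin counts over all organoid libraries, against 33.0 to 41.8% in LIS1+/- hESC and 29.7 to 31.1% in LIS1+/+ hESC. With KIF1A left out, an alternative chosen after seeing the data, the mitotic share was 53.2 ± 3.31%, 63.0 ± 1.59% and 57.5 ± 2.98% in LIS1+/- at hESC, Day 5 and Day 12, and 52.7 ± 0.591%, 63.9 ± 1.19% and 57.3 ± 4.55% in LIS1+/+. The order of the stage means stayed, with Day 5 libraries above all hESC libraries and Day 12 and hESC libraries overlapping in both genotypes, and the difference between Day 5 and hESC was 9.83 percentage points in LIS1+/- and 11.2 in LIS1+/+, against 22.1 and 20.1 with KIF1A. Mitotic kinesins summed to 732 ± 61.6 CPM in LIS1+/- hESC and 777 ± 43.0 CPM in LIS1+/+ hESC, 1018 ± 105 and 995 ± 43.6 CPM at Day 5 and 989 ± 109 and 1028 ± 10.9 CPM at Day 12. Transport kinesins summed to 1215 ± 37.6 and 1105 ± 65.9 CPM in LIS1+/- and LIS1+/+ hESC, 646 ± 64.5 and 599 ± 37.6 CPM at Day 5 and 849 ± 23.6 and 842 ± 86.1 CPM at Day 12. Without KIF1A the transport sums averaged 434 and 457 CPM in LIS1+/- and LIS1+/+ hESC, 446 and 400.0 CPM at Day 5 and 581 and 639 CPM at Day 12.

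**Figure D4:**
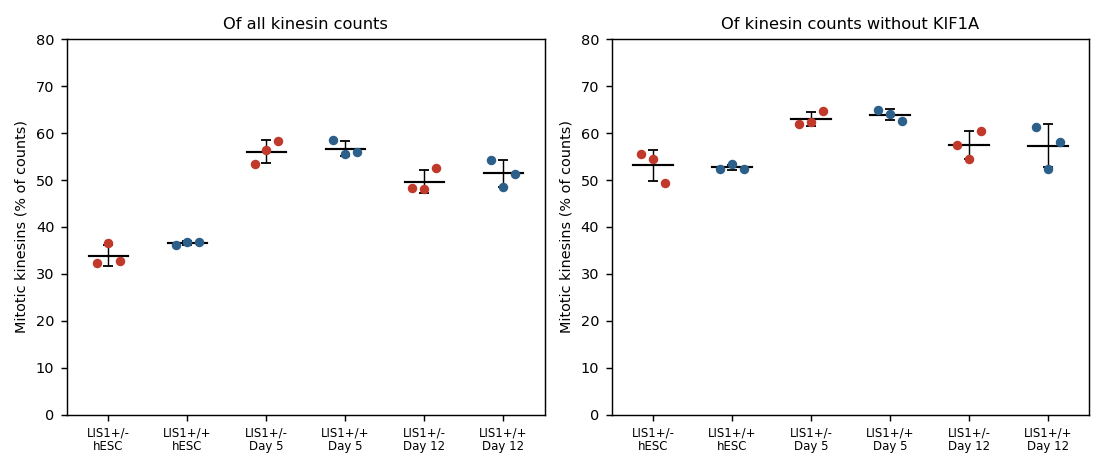
Share of kinesin counts on mitotic kinesins (percent) in every library by stage, with LIS1+/- left of LIS1+/+, for all kinesins and with KIF1A left out. Every Day 5 library lies above every hESC library, and the genotypes overlap at each stage.

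Other genes of mitosis gave a mixed background to the mitotic kinesins. Of 20 listed non-kinesin mitosis genes, all tested, 7 rose and 2 fell at Day 5 against hESC in LIS1+/-, and 6 rose and 3 fell in LIS1+/+. Among all tested genes 22.4% and 22.9% rose at this step in LIS1+/- and LIS1+/+, and 21.4% and 21.7% fell. At Day 12 against hESC 7 of the mitosis genes rose and 3 fell in LIS1+/-, and 6 rose and 5 fell in LIS1+/+. Among all tested genes 26.7% and 28.1% rose over that course in LIS1+/- and LIS1+/+, and 25.4% and 25% fell. MKI67, a marker of cycling cells, rose over that course by 1.47 ± 0.24 in LIS1+/- and 1.48 ± 0.26 in LIS1+/+, and CENPF, a kinetochore protein, by 0.96 ± 0.16 and 1.02 ± 0.16. The spindle kinase AURKA fell by 0.85 ± 0.18 in LIS1+/- and 1.11 ± 0.19 in LIS1+/+. The summed level of the 20 genes was 2476 ± 75.9 and 2509.7 ± 16.7 CPM in LIS1+/- and LIS1+/+ hESC, 2743 ± 109.7 and 2861 ± 199.8 CPM at Day 5 and 2673 ± 86.7 and 2459.7 ± 208 CPM at Day 12. Among light chains, adaptors and relatives of kinesins, 19 of 23 listed symbols were tested. At Day 12 against hESC 8 of them rose and 0 fell in LIS1+/-, and 6 rose and 2 fell in LIS1+/+. The shares of all tested genes given above for that course apply here too. SPAG9, an adaptor between conventional kinesin and dynein, rose by 2.14 ± 0.34 in LIS1+/- and 2.41 ± 0.37 in LIS1+/+. KIFAP3, which joins cargo to KIF3A and KIF3B, averaged 13.96 ± 1.498 CPM at Day 12 against 3.31 ± 2.14 CPM in hESC in LIS1+/-, and 25.2 ± 5.06 CPM against 4.69 ± 4.11 CPM in LIS1+/+. It rose by 1.96 ± 0.51 in LIS1+/- and 2.46 ± 0.51 in LIS1+/+. The light chains KLC1 and KLC4 rose by 1.11 ± 0.16 and 0.97 ± 0.18 in LIS1+/-, and by 1.08 ± 0.16 and 1.42 ± 0.19 in LIS1+/+. PRC1, the midzone bundler that KIF4A binds, rose by 0.86 ± 0.18 in LIS1+/- and 0.94 ± 0.19 in LIS1+/+.

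No kinesin was called between LIS1+/- and LIS1+/+. In edgeR, 0 of the 29 tested kinesins were called at hESC, Day 5 or Day 12 or over the average of the stages, beside 0.491%, 1.95%, 1.4% and 2.06% of all tested genes. At an unadjusted p under 0.05 the counts were 1, 0, 1 and 2, and DESeq2 also called 0. At hESC the smallest p was that of KIF21B, which had 34.1, 48.2 and 39.0 CPM in LIS1+/- and 46.7, 53.4 and 78.8 CPM in LIS1+/+. The groups overlapped, and the log2 fold change was -0.55 ± 0.24 (adjusted p = 0.397), or -0.29 (adjusted p = 0.741) without the 3 libraries of steep GC slope, 1 of which is the LIS1+/+ library at 78.8 CPM. KIF21B was also the member with the smallest p at Day 5, with 16.8, 32.2 and 34.5 CPM in LIS1+/- and 19.3, 19.8 and 19.8 CPM in LIS1+/+, which overlapped, and a log2 fold change of 0.51 ± 0.25 (adjusted p = 0.435). At Day 12 it was KIF1A, with 302, 224 and 279 CPM in LIS1+/- and 224, 153 and 232 CPM in LIS1+/+, which overlapped, and a log2 fold change of 0.40 ± 0.17 (adjusted p = 0.311), or 0.23 without those 3 libraries. Over the average of the stages KIF3C had -0.36 ± 0.15 (adjusted p = 0.257) and KIF1A 0.22 ± 0.10 (adjusted p = 0.281).

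The intervals give what size of difference the libraries allow. The 95% interval of the genotype difference lay within 2-fold either way for 16, 21 and 21 of the 29 kinesins at hESC, Day 5 and Day 12. Over the average of the stages it did so for 28 of 29, all 10 mitotic and all 14 transport kinesins among them, and the exception was KIF26B, with an interval of -1.004 to 0.62 on the log2 scale. Median log2 fold changes over that average were -0.04 for mitotic and 0.03 for transport kinesins. At hESC KIF1A was the 1 member whose LIS1+/- libraries all lay above the LIS1+/+ libraries, beside 10.6% of all genes, and none lay wholly below, beside 7.69%. The LIS1+/- libraries of KIF26A, KIF2C, KIF3C and KIF4A all lay below at Day 5, beside 9.45% of all genes, and those of KIF14 and KIF26B at Day 12, beside 8.43%, while 0 lay above at Day 5 or Day 12, beside 8.06% and 8.47%. KIF14 had 39.0, 44.96 and 39.6 CPM in LIS1+/- and 49.8, 61.7 and 53.5 CPM in LIS1+/+ at Day 12, a log2 fold change of -0.41 ± 0.23 (adjusted p = 0.449). Pluripotency markers moved with genotype at Day 5: 3 of 6 tested, of 7 listed, were lower in LIS1+/- (POU5F1, TDGF1 and DNMT3B), with sums of 1016 to 1325 CPM in LIS1+/- and 1486 to 1602 CPM in LIS1+/+, while at hESC none of the 6 was called in edgeR (2 at an unadjusted p under 0.05) and the sums were 3510.2 to 3782 and 4620.3 to 4883 CPM. LIS1+/+ Day 12 libraries had higher summed levels of markers of 4 other cell types, with no overlap: 4 of 4 tested mesenchyme markers, of 7 listed, were lower in LIS1+/-, with sums of 21.3 to 30.3 CPM in LIS1+/- and 59.1 to 549 CPM in LIS1+/+, and 4 of 5 neural crest markers were lower, with sums of 36.5 to 51.5 and 113 to 377 CPM. Of 3 tested endoderm markers, of 4 listed, 2 were lower in LIS1+/- (AFP and APOA1), with sums of 6.84 to 9.10 CPM in LIS1+/- and 16.99 to 321 CPM in LIS1+/+, and the surface ectoderm list, again EPCAM alone, summed to 4.84 to 10.54 and 16.4 to 55.6 CPM. FOXD3 of the neural crest list and SOX17 and FOXA2 of the endoderm list had no count in LIS1+/- Day 12, and the part of these markers in the kinesin values was not tested.

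**Figure D5:**
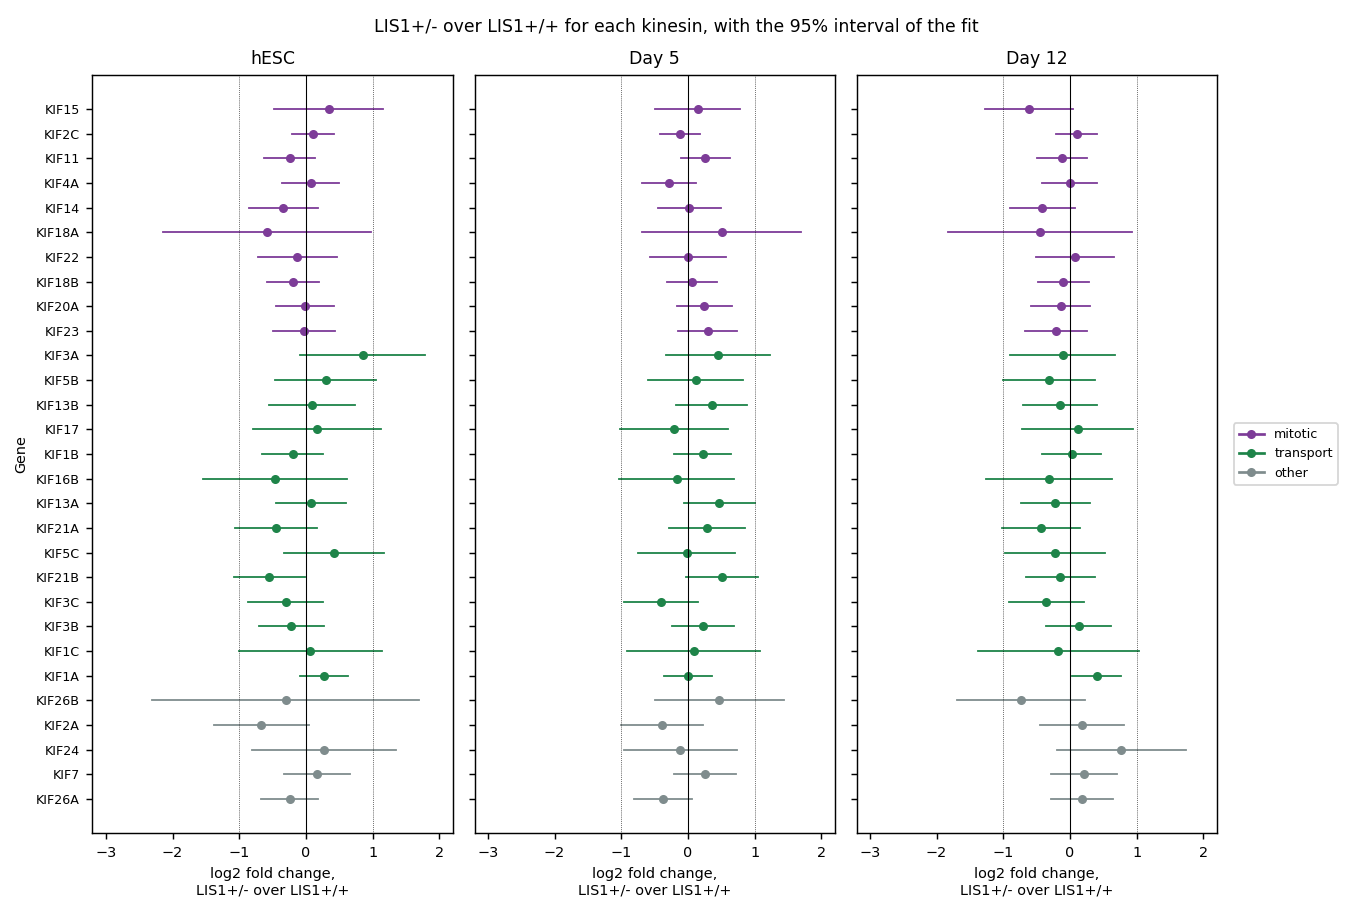
Log2 fold change of LIS1+/- against LIS1+/+ for each tested kinesin (points, coloured by class) at hESC, Day 5 and Day 12, with 95% intervals (bars) and dotted lines at 2-fold. At these stages 16, 21 and 21 of the 29 intervals lie within 2-fold, and no kinesin passed the adjusted threshold.

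The step each kinesin took was also compared between genotypes. No difference of steps was called (0 of 29 in edgeR for each of the 3 differences, beside 0.573%, 1.06% and 0.377% of all genes), with 1, 0 and 0 at an unadjusted p under 0.05 for Day 5 against hESC, Day 12 against Day 5 and Day 12 against hESC, and 0 in DESeq2. KIF21B had the smallest p: its fall at Day 5 was called in LIS1+/+ and not in LIS1+/-, and the difference of the 2 steps was 1.06 ± 0.35 (adjusted p = 0.201). Over the alternatives its adjusted p lay between 0.0570 and 0.524, so a difference between genotypes was not shown. For KIF13A at Day 12 against Day 5 the difference was -0.69 ± 0.34 (adjusted p = 0.406), and for KIF15 at Day 12 against hESC -0.96 ± 0.48 (adjusted p = 0.632). KIF2A and KIF5B, called over the course in 1 genotype, differed between genotypes by 0.85 ± 0.44 (adjusted p = 0.648) and -0.61 ± 0.47 (adjusted p = 0.792). For KIF3A, called over the course in LIS1+/+ alone, the difference was -0.96 and was not called either. Of the 19 tested light chains, adaptors and relatives of kinesins, 1 was called between genotypes at Day 5 and 1 at Day 12. The shares of all tested genes called there were 1.95% and 1.4%. FEZ1, an adaptor of conventional kinesin in neurons, averaged 50.4 ± 7.08 CPM in LIS1+/- and 83.1 ± 9.58 CPM in LIS1+/+ at Day 5, a fall of 0.72 ± 0.15 (adjusted p = 0.00983) with no overlap, lost without LIS1+/- Day 5 replicate 1, or LIS1+/+ Day 5 replicate 1 (adjusted p 0.0505 to 0.0644) and in a fit of the compared libraries only (adjusted p = 0.0820). MAPK8IP2, a scaffold that binds kinesin light chains, averaged 72.4 ± 13.5 CPM in LIS1+/- and 27.3 ± 1.83 CPM in LIS1+/+ at Day 12, a rise of 1.41 ± 0.29 (adjusted p = 0.00866) with no overlap, lost without LIS1+/- Day 12 replicate 3 (adjusted p = 0.0742). FEZ1 (lower in LIS1+/-) and MAPK8IP2 (higher) were also called over the average of the stages, beside 2.06% of all tested genes. Each of these average calls was lost in 12 of 23 alternative settings (adjusted p up to 0.0811 and 0.102). The smallest adjusted p of the 20 mitosis genes between genotypes was 0.297 at hESC, 0.598 at Day 5 and 0.257 at Day 12.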

How the data were processed

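Bulk MARS-seq libraries of WIBR3 hESC and cerebral organoids were analysed from 18 tables of raw counts per gene symbol that the authors deposited, 1 per library, with 26485 gene rows and no normalization. The 5 closing rows, which set aside 49.2 to 70.6% of a library's reads, were left out of library sizes and tests. Reads without a unique alignment made up 34.9 to 58.3% in hESC libraries and 26.5 to 33.7% in organoid libraries. That share differed between hESC and organoids, and its part in the stage comparisons was not tested. Per the submitters' processing notes, cutadapt, STAR and DESeq2 were used and the builds GRCh37 and hg38 are named. Versions, settings, the handling of molecular identifiers and the use of strand are not given in the sources used here.

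After filterByExpr over the 6 groups 12215 genes remained, with TMM scaling. The TMM factors were 0.863 to 0.937 in hESC libraries and 0.986 to 1.12 in organoid libraries. The test was the two-sided robust quasi-likelihood F-test of edgeR 4.0.16 (R 4.3.3) in 1 fit of the 18 libraries, with 12 residual degrees of freedom. Benjamini-Hochberg adjustment ran over all tested genes, with a threshold of 0.05, for 13 comparisons: genotype at each stage and over the average of the 3 stages, 3 stage steps in each genotype, and 3 differences of steps between genotypes. Intervals are 95% intervals from the standard error. Shares were compared with exact permutation tests in SciPy 1.17.1. The pipeline was tested on simulated data with known changes.

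The rule for named genes took members called between genotypes or, where a stage had none, the member with the smallest p. It also took, in each class, the 5 called members with the largest change at Day 12 against hESC and the 2 with the largest mean CPM. Other members are named where called, and the library values of KIF13A, KIF14, KIF17, KIF20A and KIF3C were chosen for print after they were seen. The members, classes and lists were chosen with earlier results of these data known. Alternatives were DESeq2 size factors, no filter, DESeq2 1.42.0 as the test, a fit of the compared libraries only, a replicate block, leaving out the 3 libraries of steep GC slope and leaving out each library in turn. GC content came from the last 500 bases of GENCODE release 29 transcripts, with a value for 11661 of the 12215 tested genes (95.46%). The GC slopes used the 9007 of these genes with a mean count of at least 20. The 3 libraries had slopes of -0.0195, -0.0267 and -0.0297 log2 per percent GC, against -0.00131 to 0.0135 in the others. No numeric cut-off was used to set them apart. Exon overlaps came from the same annotation, and promoters from the RefSeq table on GRCh38.p14. Neither build need be that of the authors. Replicates of a group differed by more than sampling noise, with a chi-square per degree of freedom of 3.58 to 16.0.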

Additional observations from a re-analysis of the deposited data

How the results depend on the processing

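Of 57 called kinesin results, 35 were called under every setting run, 22 were lost under at least 1 and 0 changed direction. Losses numbered 2 with DESeq2 size factors, 5 without the filter, 0 with DESeq2, 4 in the fit of compared libraries only, 3 without the 3 libraries of steep GC slope and 1 to 7 with 1 library left out. The genes were KIF14 and KIF24 with DESeq2 size factors, KIF14, KIF2C, KIF3A, KIF3B and KIF3C without the filter, KIF14, KIF17, KIF26A and KIF2C in the fit of compared libraries only, and KIF15, KIF21A and KIF3B without the 3 libraries, each in 1 comparison. No kinesin was called between genotypes, or in a difference of steps, under any of these settings in edgeR or DESeq2. Same-numbered libraries did not deviate together (correlations of -0.109 to 0.0925), and a fit with the replicate number as a block lost 0 of the 57 calls. With 1 library left out, the called kinesins ranged from 8 to 12 in LIS1+/- and 7 to 10 in LIS1+/+ at Day 5 against hESC, 2 to 4 and 3 to 7 at Day 12 against Day 5, and 7 to 11 and 10 to 12 at Day 12 against hESC. Mitotic calls ranged over 2 to 5 in LIS1+/- and 2 to 3 in LIS1+/+, 1 to 2 and 0 to 1, and 2 to 3 and 3 to 4 in the same comparisons. Transport calls ranged over 4 to 6 and 3 to 5, 1 to 2 and 3 to 4, and 2 to 5 and 4 to 7. Leaving out the 3 libraries of steep GC slope gave 7 called kinesins, 4 of them transport, at Day 12 against Day 5 in LIS1+/-. Mitotic calls there were 1 without the filter and 1 in the fit of compared libraries only. That fit also called 5 mitotic kinesins at Day 5 against hESC in LIS1+/+ and 7 transport kinesins at Day 12 against hESC in LIS1+/-. The cause was not tested. Depth limits the lowest members: KIF26B had 5 counts in each hESC group, and 9 members with counts fell under the filter.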

Other observations

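Kinesins known from motile cilia had few counts. KIF19 had 1 and 2 counts over the 3 libraries of LIS1+/- and LIS1+/+ hESC, 24 and 14 at Day 5, and 14 and 11 at Day 12. KIF9 had 4 and 1, 8 and 5, and 4 and 1 in the same groups. KIF27 had 6 counts and KIF6 had 1 count over all 18 libraries. None of these 4 was tested. Over the same libraries FOXJ1, a master regulator of motile cilia, lay at 56.9 to 119 CPM in LIS1+/- and 39.0 to 63.3 CPM in LIS1+/+ at Day 12, against 3.25 to 7.58 and 4.34 to 6.19 CPM in hESC.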
